A study of Mus musculus with 192 samples.

Results

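The mRNA of c-Fos was followed through 4 brain regions of male mice of the L44 line, in all 192 pools of RNA counted, as 1 of 43 target genes. L44 mice carry a transgene for triprolyl-human amylin under the rat insulin 2 promoter (a promoter of pancreatic beta-cells) on the FVB/n background. Pools came from hemizygous (HEM), homozygous (HOM) and nontransgenic (NON) mice, at T1 (99 to 101 days old, before diabetes), T2 (90 to 286 days old, at the onset of diabetes, with NON controls) and T3 (400 to 408 days old, when the transgenic mice had normal blood glucose). Tissue was collected in the morning (AM) or in the afternoon (PM), and 12 HEM pools of T1, 3 in each region, have no collection time in their labels. Each pool held the RNA of 1 mouse (43 pools) or 2 mice (149 pools), from 341 tissue samples, and p-values measure the spread between pools.

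c-Fos encodes a subunit of the AP-1 transcription factor and is an immediate early gene. Its transcript is made within minutes of neuronal firing or receptor signalling, is short-lived, and is widely used as a marker of recently active neurons. In the brain it is known to respond to feeding, stress, handling and light, and amylin given to rodents induces it in hindbrain neurons of the area postrema. The amylin receptor is formed by the calcitonin receptor (Calcr) and a receptor activity-modifying protein (Ramp). The pools are of whole regions, which for the midbrain included the rest of the forebrain with the hypothalamus and for the hindbrain the cerebellum, so that fewer c-Fos-expressing cells and less c-Fos per cell cannot be told apart. Mch, a hypothalamic neuropeptide, had a median ratio to the reference genes of 4.11 in the midbrain pools and of 0.0246 or less in the other 3 regions, so the midbrain pools hold the hypothalamus as the dissection says.

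The mouse gene, Fos, lies on chromosome 12, chr12:85473890-85477274 on the plus strand (GRCm38.p6, RefSeq). The 150 bases just before its start are given because they include elements through which the gene is switched on. The TATA box (TATAAA, at -33 to -28) and 2 copies of TGACG, the core of the cyclic AMP response element (at -129 to -125 and at -66 to -62), are in capitals, with the base before the start as position -1.
Fos, chr12:85473740-85473889: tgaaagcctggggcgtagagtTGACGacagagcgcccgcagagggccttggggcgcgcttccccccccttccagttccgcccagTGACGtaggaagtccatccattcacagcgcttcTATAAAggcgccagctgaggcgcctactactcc
On either strand, TGACG was found in 13.3% and TATAAA in 7.57% of the same window of 32851 promoters. The full element TGACGTCA, which contains TGACG, and the AP-1 motif TGACTCA were found in 1.36% and 2.84% of them, and neither string is in this window of Fos. These matches describe the sequence and were not tied to the counts.

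Levels are given as the ratio of the c-Fos count to the geometric mean of the counts of 3 reference genes in the same pool, so that a ratio of 1 is the reference gene level. The total count over the 43 targets was 3489 to 252890 per hindbrain pool, 125321 to 314759 per midbrain pool, 51446 to 490984 per left cortex pool and 90264 to 525264 per right cortex pool. Raw c-Fos counts ran from 54 to 7918 among hindbrain, from 1013 to 11578 among midbrain, from 585 to 28873 among left cortex and from 1041 to 37794 among right cortex pools. In no pool was c-Fos at background, and its lowest count was 3.94 times that level, which was set 2 SD above the mean of the pool's negative probes. In 3 hindbrain pools of T3 (NON PM 5/6, NON AM 7 and HOM AM 9) the reference gene counts were under a fraction of 0.2 of the region's median, and the c-Fos differences that include them are also given without them. The median reference gene count at T3, relative to T1 and T2, was 0.730 for hindbrain, 0.579 for left cortex, 0.427 for right cortex and 1.06 for midbrain pools, and its part in differences between time points was not tested.

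c-Fos was higher in both cortices than in the midbrain and hindbrain. Left cortex pools had a ratio of 1.09 ± 0.690 (SD, n = 48) and right cortex pools one of 1.10 ± 0.657 (n = 49), against 0.675 ± 0.392 (n = 46) for hindbrain and 0.667 ± 0.305 (n = 49) for midbrain pools. From the lowest pool, at 0.1205 in the hindbrain, to the highest, at 4.74 in the left cortex, the ratio spanned 39.3-fold. The regions overlapped widely as groups, but within a set of mice the order was regular. Among 35 pool numbers measured in all 4 regions, both cortices were above both other regions in 30. The left cortex and the right cortex were each above the midbrain in 35 of 35, while the midbrain was above the hindbrain in 13.

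With mice of 1 pool number kept together as a block, the cortices exceeded the other regions and did not differ from each other. The log2 difference was 0.60 (SE 0.062, adjusted p = 5.5e-17) between left cortex and midbrain and 0.66 (adjusted p = 2.6e-19) between right cortex and midbrain, tested with edgeR's quasi-likelihood F-test and adjusted over the 43 genes after Benjamini and Hochberg. Against the hindbrain it was 0.53 (adjusted p = 2.6e-12) for the left and 0.59 (adjusted p = 2.2e-14) for the right cortex. These 4 differences were positive and called under all alternatives run, but their size moved with the scaling. Against the hindbrain it ran from 0.29 with TMM scaling to 1.08 with positive control scaling for the left and from 0.34 to 1.39 for the right cortex, and against the midbrain from 0.50 to 0.76 and from 0.54 to 1.07 over all alternatives. Most of the panel differed between these regions: 83.7% of the genes were called between left cortex and midbrain, 83.7% between right cortex and midbrain, 83.7% between left cortex and hindbrain and 86.0% between right cortex and hindbrain, where a call is an adjusted p under 0.05. Genes moved both ways, with medians from -0.07 to 0.16, and by size of change c-Fos stood at rank 20, 18, 22 and 19 of 43 in the same order, near the middle of the panel. Right minus left cortex was 0.06 (SE 0.062, adjusted p = 0.751), with 0% of the genes called (4 of 43 at an unadjusted edgeR p under 0.05, and 0 called by DESeq2). In 45 pool numbers the right-to-left ratio ran from 0.754 to 1.34 with a median of 0.993. Midbrain minus hindbrain was -0.07 (adjusted p = 0.279; 81.4% of genes called), but its direction and call depended on the scaling. It was -0.34 and called with TMM (trimmed mean of M-values) scaling and 0.32 and called with scaling to the positive control probes. Without the 3 low-count pools it was -0.098, and the left and right cortex minus hindbrain were 0.51 and 0.56. Over all alternatives midbrain minus hindbrain ran from -0.34 to 0.32, with adjusted p from 1.5e-06 to 0.857.

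**Figure D1:**
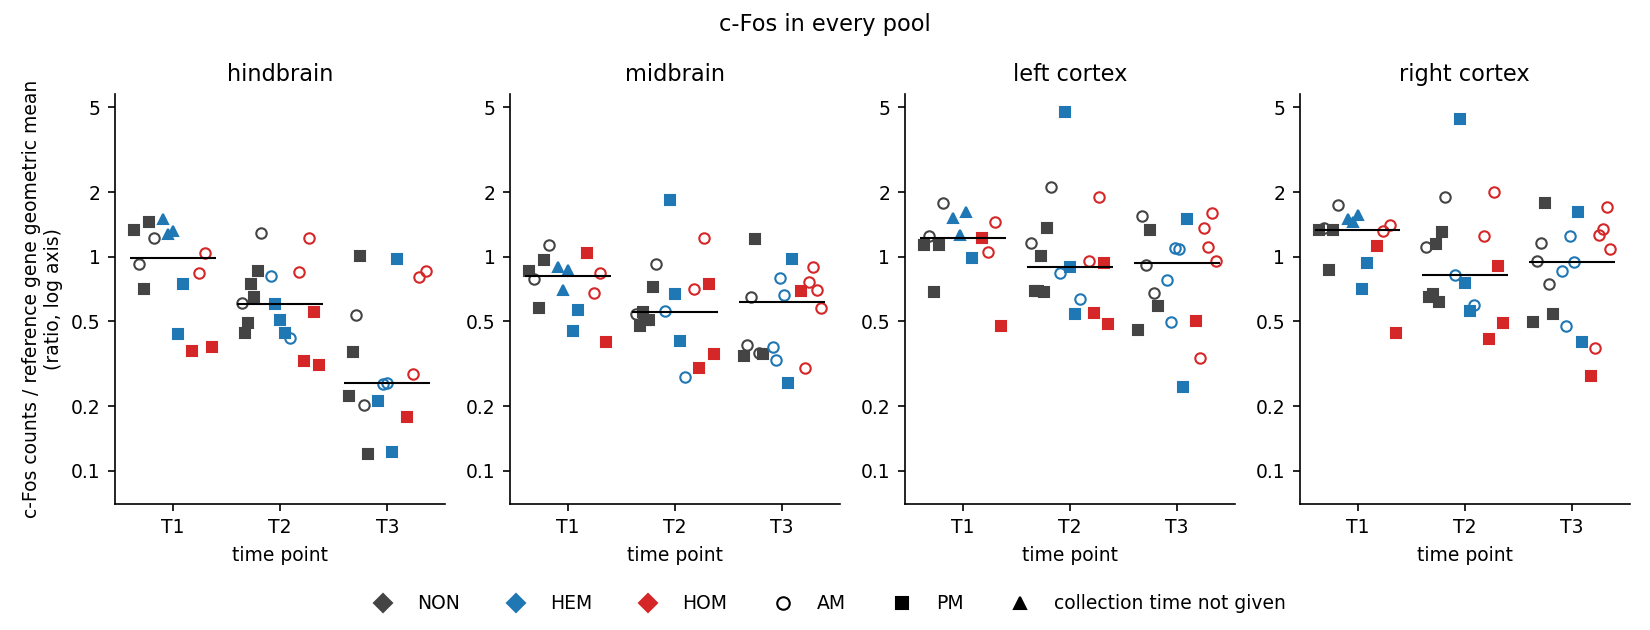
c-Fos ratio to the reference genes (log axis) in each of the 192 pools, by region and time point, with genotype as colour and AM, PM or no collection time as symbol; lines are medians. The hindbrain medians step down from T1 to T3 (0.985, 0.599 and 0.258), and the T2 HEM PM pool 5/10 stands highest in both cortices, at 4.74 and 4.39.

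Across time points, the hindbrain had less c-Fos at T3 than at T1 and T2 relative to the reference genes. There the ratio ranged from 0.363 to 1.49 (median 0.985, n = 14, or 0.843 without the 3 pools of unknown collection time, which the contrast leaves out) at T1, from 0.312 to 1.29 (median 0.599, n = 17) at T2 and from 0.1205 to 1.01 (median 0.258, n = 15) at T3. The ranges overlapped. With genotypes and collection times weighted equally, T3 was lower than T1 by a log2 difference of -1.01 (SE 0.319, adjusted p = 0.00617, edgeR) and lower than T2 by -0.88 (SE 0.281, adjusted p = 0.00603). Most genes were also called, 67.4% for T3 minus T1 and 69.8% for T3 minus T2, and the median gene moved by -0.46 and -0.32. With TMM scaling, which centres the panel, c-Fos was -0.59 (adjusted p = 0.143) and -0.53 (adjusted p = 0.110) and not called. Without the 3 low-count pools they were -1.12 (adjusted p = 0.00173) and -0.97 (adjusted p = 0.00184). Over all alternatives T3 minus T1 ran from -1.89, with positive control scaling, to -0.59 (adjusted p from 0.000146 to 0.143), and T3 minus T2 from -1.83, with the same scaling, to -0.53 (adjusted p from 8.5e-05 to 0.110). T2 minus T1 was -0.20 (adjusted p = 0.678), with 0% of the genes called by edgeR, 10 at an unadjusted p under 0.05 and 4 called by DESeq2.

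In the other 3 regions no time difference of c-Fos was called with the reference genes as scale. The midbrain medians were 0.814 (n = 14), 0.550 (n = 17) and 0.614 (n = 18) at T1, T2 and T3. Those of the left cortex were 1.22 (n = 13), 0.895 (n = 17) and 0.934 (n = 18), and those of the right cortex 1.33 (n = 14), 0.824 (n = 17) and 0.950 (n = 18). In all 3 regions the highest median was thus that of T1, with ranges that overlapped, and it stayed the highest without the T1 pools of unknown collection time, at 0.790 (n = 11), 1.14 (n = 10) and 1.31 (n = 11). In the midbrain c-Fos differed by -0.06 between T2 and T1, by -0.28 between T3 and T1 and by -0.12 between T3 and T2 on the log2 scale, where 16.3%, 55.8% and 58.1% of the genes were called. In the left cortex it differed by 0.17, -0.40 and -0.43, where 6.98%, 60.5% and 74.4% were called, and in the right cortex by 0.12, -0.49 and -0.46, where 6.98%, 69.8% and 74.4% were called. In all 3 regions the direction of T2 minus T1 turned with single pools left out. Positive control scaling turned it in the midbrain and left cortex as well. The T3 differences of the cortices depended on the scaling and on single pools. With scaling to the positive control probes T3 minus T1 and T3 minus T2 were called, at -1.53 and -1.20 on the left and -2.14 and -2.13 on the right. With that scaling nearly the whole panel was called, 43 and 42 of 43 genes on the left and 43 and 43 on the right. Without the T3 HEM PM pool 8/10, which was high in all 4 regions, T3 minus T1 came to -0.77 (left, adjusted p = 0.0467) and -0.76 (right, adjusted p = 0.0316), and T3 minus T2 to -0.74 (left, adjusted p = 0.0164) and -0.69 (right, adjusted p = 0.0221). Without the T3 NON PM pool 5/6, the right cortex differences were -0.67 (adjusted p = 0.0444) and -0.61 (adjusted p = 0.0312).

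Collection time was compared because c-Fos responds to the activity of the animal. Averaged over genotypes and time points, PM minus AM of c-Fos was not called in any region. Hindbrain pools differed by -0.55 (SE 0.238, adjusted p = 0.138; 6.98% of genes called) and midbrain pools by 0.02 (adjusted p = 0.975; 16.3% called). Left cortex pools differed by -0.40 (adjusted p = 0.236; 34.9% called) and right cortex pools by -0.48 (adjusted p = 0.157; 14.0% called). The hindbrain difference was called once T3 or its low-count pools were left out. It was -0.69 without T3 (adjusted p = 0.0131; 9.30% of genes called), -0.68 when those 3 low-count pools were left out (adjusted p = 0.0436; 9.30% called) and -0.72 without the T3 HEM PM pool 8/10 (adjusted p = 0.0154), and over all alternatives it ran from -0.72 to -0.33 with adjusted p from 0.0131 to 0.937. In the cortices the T2 HEM PM pool 5/10 decided the call. Without it PM minus AM was -0.59 on the left (adjusted p = 0.0263) and -0.68 on the right side (adjusted p = 0.0115), and without the T3 HEM PM pool 8/10 it was -0.63 on the left (adjusted p = 0.0378).

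HOM mice had less c-Fos in the afternoon in the hindbrain and the right cortex. In the hindbrain the 2 AM pools of T1 had ratios of 0.843 and 1.04 and the 2 PM pools 0.363 and 0.379. At T2 the 2 AM pools had 0.847 and 1.22 and the 3 PM pools 0.312, 0.325 and 0.554. All 4 AM pools of T1 and T2 were thus above all 5 PM pools. At T3 the 3 AM pools had 0.284, 0.808 and, in a pool of low reference gene counts, 0.858, and the only PM pool had 0.1785. Over the 3 time points PM minus AM was -1.52 (SE 0.452, adjusted p = 0.0226, edgeR, 6 PM and 7 AM pools), where 4 genes (9.30%) were called and the median gene moved by -0.12. Without T3, an alternative chosen after the data were seen, it was -1.36 (SE 0.269, adjusted p = 0.00194; 6.98% of genes called), and without the low-count pool -1.44 (adjusted p = 0.0165). The call was lost without the T1 HOM PM pool 1/5 (adjusted p = 0.0548), the T2 HOM AM pool 5 (adjusted p = 0.0584) or the T3 HOM PM pool 1/11 (adjusted p = 0.114), at -1.51, -1.42 and -1.36. Scaling to the positive control probes gave -1.20 (adjusted p = 1.00), and over all alternatives the difference ran from -1.65 to -1.20, with adjusted p from 0.00194 to 1.00.

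In the right cortex the HOM AM pools had ratios of 1.31 and 1.41 at T1 and 1.26 and 2.00 at T2, and the PM pools 1.12 and 0.440 at T1 and 0.413, 0.906 and 0.490 at T2. Again no PM pool of T1 and T2 reached the lowest AM pool. At T3 the 5 AM pools had 0.374, 1.08, 1.26, 1.34 and 1.72, and the only PM pool 0.276. PM minus AM was -1.43 (SE 0.440, adjusted p = 0.0121; 25.6% of genes called), and -1.12 without the T3 HOM PM pool (adjusted p = 0.0871) or without T3 (adjusted p = 0.0692). Over all alternatives it ran from -1.71 to -0.94, with adjusted p from 0.00185 to 0.0884. In the left cortex it was -0.93 (SE 0.447, adjusted p = 0.0975; 41.9% called), and 0.0452 was the adjusted p without the T2 HEM PM pool 5/10, which is not in the comparison but enters the shared estimate of spread. In the midbrain it was -0.34 (SE 0.370, adjusted p = 0.510; 23.3% called).

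The other genotypes did not have a called difference between collection times. In NON mice PM minus AM of c-Fos was -0.11 for hindbrain, -0.07 for midbrain, -0.63 for left and -0.40 for right cortex pools, where 4.65% of the tests of all genes in the 4 regions were called. The hindbrain value was -0.54 (adjusted p = 0.531) without the low-count pools. In HEM mice it was 0.26, 0.70, 0.75 and 0.81, where 0% of 172 tests were called by edgeR, 10 had an unadjusted p under 0.05 and DESeq2 called 2. The HEM direction turned in the hindbrain without T3, and in the hindbrain and left cortex with single pools left out. In the cortices the T2 HEM PM pool 5/10 stood apart, at 4.74 and 4.39. The medians of its group were 0.895 and 0.751. The difference between the genotypes was then tested itself, in 8 comparisons chosen after these values were seen. By edgeR, HOM less NON was -1.41 in the hindbrain (SE 0.569, adjusted p = 0.265) and -1.03 on the right side of the cortex (SE 0.547, adjusted p = 0.268). HEM less NON was 1.39 on the left side (SE 0.632, adjusted p = 0.755) and 1.21 on the right (SE 0.602, adjusted p = 0.453). Both of these values include the high T2 HEM PM pool 5/10. Without the low-count pools HOM less NON in the hindbrain was -0.90 (adjusted p = 0.408) and HEM less NON 1.13 (adjusted p = 0.702), against 0.49 with them. No c-Fos difference was called and 1.16% of the tests of all genes were, so the HOM change is not shown to differ from that of NON mice. Within single time points PM minus AM of c-Fos ran from -0.73 in the hindbrain at T2 to 0.24 in the midbrain at T3 and was never called, where 7.56% of the tests of all genes were called. At T3 the hindbrain value was -0.31, and -0.67 (adjusted p = 0.419) without the low-count pools. PM minus AM did not differ by a called amount between time points (T3 less T1 in the hindbrain -0.24, and -0.77 without the low-count pools), where 0% of 344 tests were called by edgeR, 11 had an unadjusted p under 0.05 and DESeq2 called 1.

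**Figure D2:**
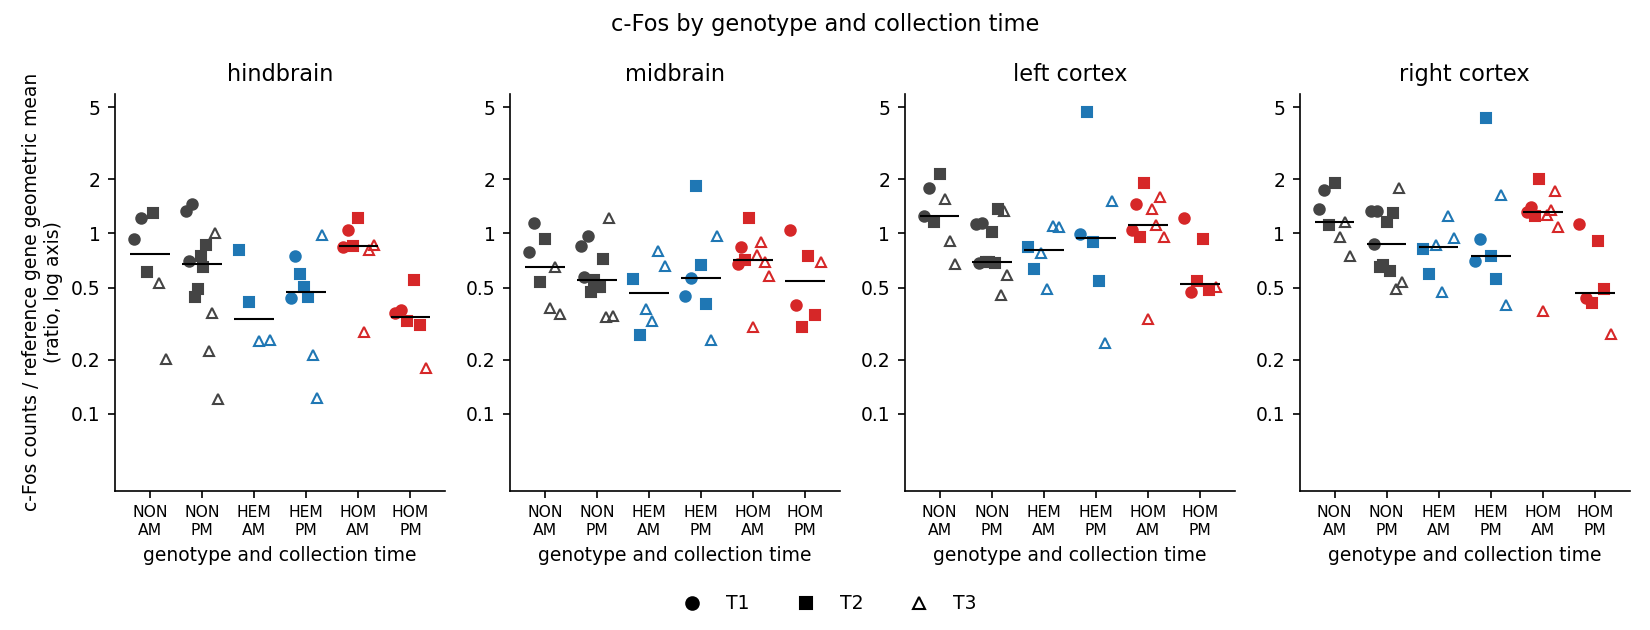
c-Fos ratio to the reference genes (log axis) in each pool with a known collection time, by region, genotype and AM or PM, with the time point as symbol; lines are medians. In the HOM hindbrain the median was 0.847 in 7 AM pools and 0.344 in 6 PM pools. In HEM pools it was 0.337 (n = 4) and 0.475 (n = 8), with T1 present only among the PM pools. Within T2 the HEM hindbrain median was 0.613 in AM and 0.507 in PM pools, and within T3 0.256 and 0.211.

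Other genes of the panel also changed with collection time, and the genes named here are the 2 with the largest called change in each region. Averaged over genotypes and time points, Mc4r, the melanocortin receptor through which feeding is restrained, was lower in the PM hindbrain by a log2 difference of -0.39 (SE 0.095, adjusted p = 0.00417), and Foxo1, a transcription factor held in check by insulin signalling, was higher by 0.23 (SE 0.042, adjusted p = 0.000188). Irs2, an adaptor of the insulin receptor, was lower in the PM left and right cortex by -0.42 (adjusted p = 3.0e-06) and -0.41 (adjusted p = 8.3e-07). Hrh1, the histamine H1 receptor, was lower there by -0.37 (adjusted p = 1.3e-05) and -0.40 (adjusted p = 1.9e-05). In the midbrain Npy, a peptide that stimulates feeding, was higher by 0.43 (adjusted p = 0.00393) and Cart, a peptide that restrains it, was lower by -0.30 (adjusted p = 0.00646). With scaling to the positive control probes, Npy in the midbrain was still called at 0.48 (adjusted p = 0.00991), and the other 7 differences were not called.

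In HOM mice, the 4 genes called between PM and AM in the hindbrain were all lower in the PM pools. Beside c-Fos they were Mc4r at -0.65 (adjusted p = 0.0126), Hdac5, a histone deacetylase, at -0.33 (adjusted p = 0.00613), and Ptp1b, a phosphatase that ends leptin and insulin receptor signalling, at -0.24 (adjusted p = 0.0126). With scaling to the positive control probes none of the 4 was called. Mc4r was then -0.42, Hdac5 -0.096 and Ptp1b -0.051. Of the 6 genes of the amylin receptor list (Calcr with its isoforms Calcr-1a and Calcr-1b, and Ramp1, Ramp2 and Ramp3), 0 were called in the hindbrain by edgeR or DESeq2 and 0 had an unadjusted p under 0.05, with a median of -0.03 against -0.12 over all 43 genes. PM pools had less Ramp1 in the left cortex (-0.16, adjusted p = 0.0382) and the right (-0.30, adjusted p = 0.000628), and less Ramp3 in the midbrain (-0.22, adjusted p = 0.0447). No other gene of the list was called in these 3 regions. With positive control scaling neither Ramp1 nor Ramp3 was called. Ramp1 then turned direction, at 0.007 for left and 0.20 for right cortex pools. Ramp3 was then -0.005 for midbrain pools, so little of its change was left. Of 13 genes of insulin and PI3K-Akt signalling, none was called in the hindbrain and none higher anywhere relative to the reference genes, while midbrain PM pools had 2 lower, left cortex pools 9 and right cortex pools 4, beside 9.30%, 23.3%, 41.9% and 25.6% of all genes called in these regions. With positive control scaling none of the 13 was called in the hindbrain or the cortices, and in the midbrain 4 (Gsk3a, Insr, Pdk1 and mTor) were higher and 0 lower. Relative to the reference genes, their medians of -0.05, -0.02, -0.15 and -0.14 lay beside those of all genes, at -0.12, -0.06, -0.15 and -0.13.

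Genotype alone gave no called difference of c-Fos. Averaged over time and collection points, HEM minus NON was -0.49 for hindbrain (SE 0.284, adjusted p = 0.246), -0.095 for midbrain, -0.014 for left and -0.099 for right cortex pools. HOM minus NON was -0.48 (SE 0.281, adjusted p = 0.238), 0.04, -0.29 and -0.45 in the same order. Without the low-count pools the hindbrain differences were -0.42 (adjusted p = 0.292) and -0.46 (adjusted p = 0.276). Without T3, an alternative chosen after the data were seen, they were larger and near the threshold by edgeR. HEM minus NON was then -0.64 (adjusted p = 0.0773) and HOM minus NON -0.60 (adjusted p = 0.0715). In these 8 comparisons 10.2% of the tests of all genes were called. Without the T3 HEM PM pool 8/10 the hindbrain difference of HEM minus NON was -0.76 (adjusted p = 0.0286), while scaling to the positive control probes gave 0.08. Within single time and collection points 39 comparisons had at least 2 pools a group, where 4.17% of the tests of all genes and none of c-Fos were called. The lowest unadjusted edgeR p-values were those of HOM minus NON in the T1 PM hindbrain (-1.65, adjusted p = 0.576) and of HEM minus NON in the T2 PM cortices, at 1.21 on the left (adjusted p = 0.203) and 1.11 on the right (adjusted p = 0.563). The first was called when T3 was left out (adjusted p = 0.0119). The HEM pool 5/10 of T2 PM, with ratios of 4.74 and 4.39 in the cortices, 1.83 in the midbrain and 0.599 in the hindbrain, was the highest of its group in all 4 regions. The lowest and median ratios of that group of 3 were 0.542 and 0.895 in the left and 0.561 and 0.751 in the right cortex. NON pools of T2 PM ranged from 0.68 to 1.37 on the left and from 0.617 to 1.30 on the right. The HEM minus NON differences of the T2 PM cortices thus rest on pool 5/10.

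At T3 the labels also record whether mice had been diabetic, a yes that 3 NON pools of each region carry as well. In the hindbrain 10 pools labelled yes had ratios from 0.1205 to 0.858 (median 0.217) and 5 labelled no from 0.284 to 1.01 (median 0.534), and in the NON mice all 3 pools labelled no were above all 3 labelled yes in each of the 4 regions. The other genotypes were less regular: the only HOM hindbrain pool labelled no, at 0.284, was below the median of 0.808 of the 3 labelled yes, and in the HEM left cortex the lowest pool labelled no, at 0.776, was below the highest labelled yes, at 1.09. With genotype and collection time in the model, a comparison chosen after the data were seen, yes minus no by edgeR was -1.49 for hindbrain (SE 0.546, adjusted p = 0.467; 0% of genes called, 3 at an unadjusted p under 0.05) and -0.82 for midbrain pools (SE 0.310, adjusted p = 0.413; 2.33% called). It was -0.99 for left cortex (SE 0.323, adjusted p = 0.123; 4.65% called) and -1.03 for right cortex pools (SE 0.267, adjusted p = 0.0683; 0% called, 6 at an unadjusted p under 0.05). Without the low-count pools the hindbrain difference was -1.09 (adjusted p = 0.480). None was called by edgeR with the reference genes as scale. With all pools kept, DESeq2 called the left (-0.99) and right cortex (-1.03) and TMM scaling the right cortex (-1.09), and single pools also changed the call in 3 regions. Without the T3 HEM AM pool 1, HEM AM pool 6, NON AM pool 3/4 or HOM AM pool 10, the right cortex was called (adjusted p = 0.0456, 0.0160, 0.0365 and 0.0132), the left cortex was called without HEM AM pool 6 (adjusted p = 0.0358) or HOM AM pool 10 (at -0.93), and the hindbrain was -2.05 without HOM AM pool 12 (adjusted p = 0.00332). The adjusted p over all alternatives ran from 0.00867 to 0.267 for right cortex, from 0.0324 to 0.418 for left cortex and from 0.00332 to 0.757 for hindbrain pools.

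c-Fos of the same mice mostly deviated from the group mean in the same direction in the 4 regions. For each pool the log2 ratio was taken relative to the mean of its group (time point, genotype and collection time), and these deviations were set against each other between regions for equal pool numbers. Pearson's r was 0.974 between left and right cortex (43 pools), 0.919 between midbrain and left cortex (44), 0.910 between midbrain and right cortex (45), 0.797 between hindbrain and midbrain (35), 0.737 between hindbrain and left cortex (31) and 0.595 between hindbrain and right cortex (31). Spearman's rho was 0.950, 0.889, 0.905, 0.821, 0.758 and 0.724. By permutation of pools within groups the p-values, adjusted over the 6 pairs, were 2.0e-05 to 8.0e-05, where the smallest p that the permutations can give is 1e-05. Without the low-count pools r was 0.750 between hindbrain and midbrain (the other 2 hindbrain pairs hold none of them). Without the 2 pools farthest from the median r was 0.959, 0.903, 0.891, 0.756, 0.616 and 0.583.

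The deviations had 1 sign in most mice. Of 34 pool numbers with all 4 regions, 13 were above their group in all 4 and 13 below in all 4, and the cortices had the same sign in 33. In a group of 2 pools the deviations mirror each other, and with only groups of 3 or more pools, an alternative chosen after the data were seen, r was 0.977, 0.915, 0.898, 0.671, 0.626 and 0.626 in the order above. Within single time points, 15 values of r could be computed, the hindbrain pairs of T3 having too few pools. They ran from 0.50 to 0.99, the lowest being those of the hindbrain at T1, where the adjusted p by permutation was 0.0234 with the midbrain, 0.0596 with the left cortex and 0.0528 with the right. The range of r over all alternatives was 0.950 to 0.977 between the cortices and 0.566 to 0.724 between hindbrain and right cortex.

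**Figure D3:**
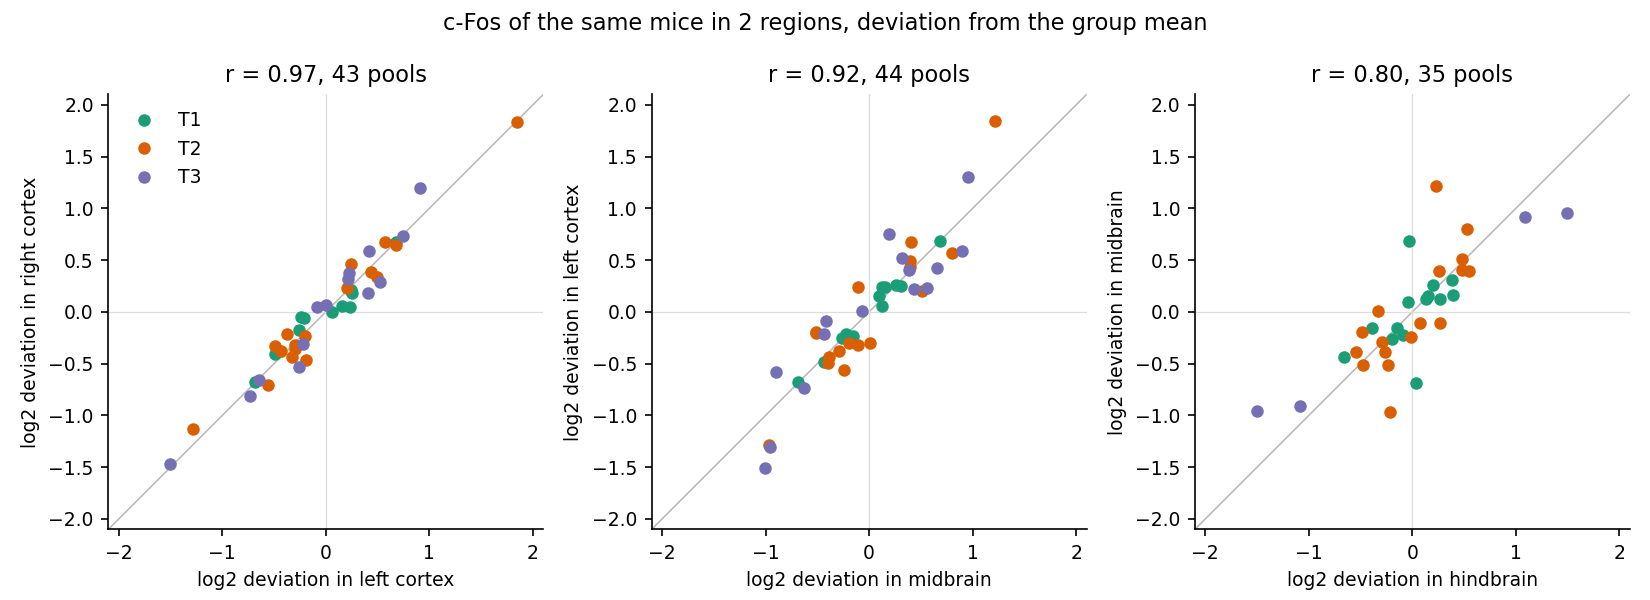
Deviation of c-Fos from the group mean (log2) in 1 region against that in another region of the same mice, with 1 point per pool number, the time point as colour and a grey line of equality. Points lie along the line for the cortices (r = 0.974) and midbrain against left cortex (r = 0.919), and scatter more for hindbrain against midbrain (r = 0.797).

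c-Fos had the highest between-region r of the 43 genes in 5 of the 6 pairs, and stood at rank 3 between hindbrain and right cortex. The median of the other 42 genes was 0.12 to 0.34, and the highest of them was Npy between the cortices, at 0.914. Some genes came near c-Fos. Between midbrain and left cortex r was 0.874 for Npy, 0.863 for Socs3, an inhibitor of leptin signalling, and 0.842 for Stat3. Between midbrain and right cortex it was 0.826, 0.848 and 0.788 for the same genes, but 0.22, -0.09 and 0.19 between hindbrain and midbrain. The reference gene level of a pool enters every ratio of that pool. Within single regions its r with the deviation of c-Fos was -0.19 for hindbrain, -0.20 for midbrain, 0.26 for left and -0.05 for right cortex pools (adjusted p by permutation 0.612, 0.390, 0.390 and 0.830). These values concern 1 region at a time, and the part of the reference gene level in deviations shared between regions was not tested. At T2, where age varied most, r of the deviation with age was -0.15 to -0.37 in the 4 regions (17 pools, adjusted p by permutation 0.42 to 0.68), and 0.03 to -0.16 without the 2 extreme pools.

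**Figure D4:**
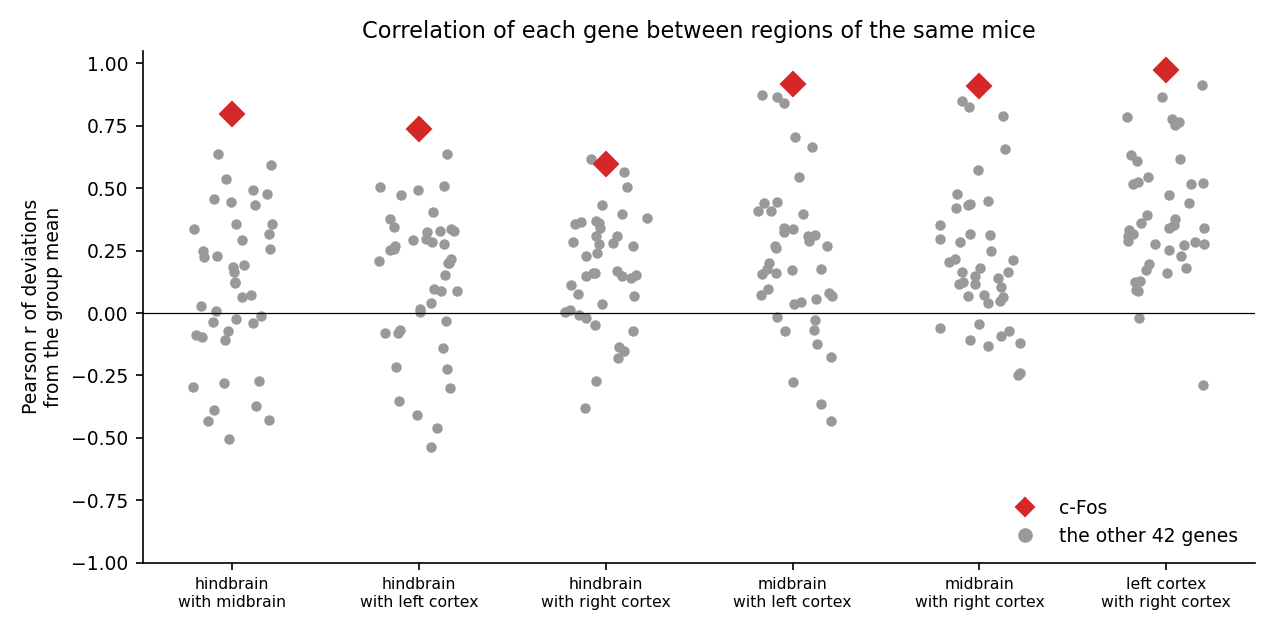
Correlation (Pearson's r) between 2 regions of the deviations from the group mean, for each of the 43 genes and 6 pairs of regions, with c-Fos as a red diamond. c-Fos is the highest gene in 5 pairs, from 0.737 to 0.974, and the third highest between hindbrain and right cortex, at 0.595.

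c-Fos was also among the genes that varied most within groups. The SD of its log2 ratio within groups was 0.753 among hindbrain, 0.659 among midbrain, 0.790 among left and 0.745 among right cortex pools, against a median over the 43 genes of 0.263, 0.119, 0.191 and 0.182. It ranked 7, 2, 3 and 2 among them. Of the genes above it, Cart in the hindbrain had a mean count of 1748 and Pomc, the precursor of melanocortins, one of 183. The others (Ins1, Iapp, Agrp and Socs3 in the hindbrain, Iapp in the midbrain, Calcr in both cortices and Calcr-1a in the left cortex) had mean counts from 10.6 to 52.4, where counting error is larger. Without the low-count pools the hindbrain SD of c-Fos was 0.653.

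Genes that varied with c-Fos were looked for among pools of the same group. Irs2 had the highest mean r with c-Fos over the 4 regions, at 0.44 (0.33 to 0.55), followed by Ptp1b at 0.39 (0.12 to 0.53) and Hcrt, the precursor of the wake-promoting orexins, at 0.27 (-0.13 to 0.49). The lowest mean r were those of Pdk1, a kinase, at -0.28, Pias3, an inhibitor of STAT3, at -0.27, and Arrb2, an arrestin that ends receptor signalling, at -0.27. Of 168 correlations 1 (0.595%) was called, that of Ptp1b in the left cortex (r = 0.53, rho = 0.60, permutation p = 0.00022, adjusted p = 0.0370, 46 pools). Without the 2 extreme pools r was 0.52 and no longer called (adjusted p = 0.178). With TMM scaling 6 correlations were called and with each pool centred 3, among them in both cases that of Pdk1 in the left (r = -0.49 and -0.59) and right cortex (r = -0.48 and -0.55). Irs2 in the left cortex had an adjusted p of 0.0563 by permutation at r = 0.55, and 22 of the 168 had an unadjusted p under 0.05. Over the amylin receptor list the mean r was 0.14 for Calcr, 0.12 for Ramp1, 0.07 for Ramp3, 0.05 for Calcr-1a, 0.02 for Ramp2 and -0.07 for Calcr-1b, and 0 of them were called in any region.

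**Figure D5:**
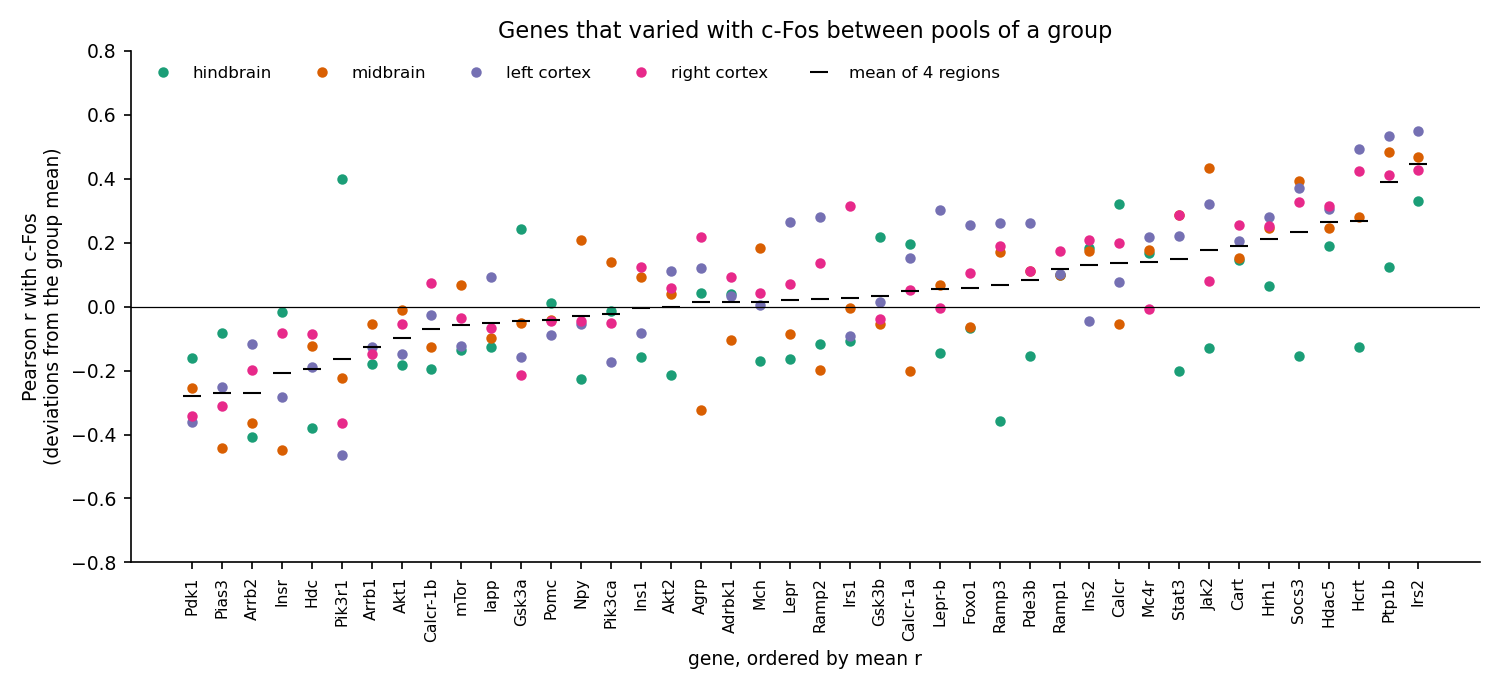
Pearson's r of each of the other 42 genes with c-Fos within groups, in each of the 4 regions, with genes ordered by their mean r. Irs2 is highest (mean 0.44) and positive in all 4 regions, and Pdk1 is lowest (mean -0.28).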

How the data were processed

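The deposited data are raw counts of barcoded probes on the nCounter platform, which counts mRNA without amplification. The authors deposited the counts of 43 target genes, 3 reference genes, 6 positive and 8 negative control probes in each pool, with no correction or normalisation, and all columns were matched to the labels. The genes, lists and tests were chosen with earlier results of these data known, and pools are named by the numbers in their labels.

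Each region was fitted in edgeR 4.0.16 (R 4.3.3, with limma 3.58.1) with 1 mean per group of equal time point, genotype and collection time, and with reference genes (their geometric mean) as library size. Contrasts averaged over groups weight them equally, were tested by the quasi-likelihood F-test, two-sided, and were called at a Benjamini-Hochberg adjusted p under 0.05 over the 43 genes. A second limit of an absolute log2 fold-change above 1, which the study uses, was not applied. Regions were compared in 1 fit with the mice of a pool number as a block. By their labels, pools of 1 number in different regions were taken to hold tissue of the same mice. The labelled ages of the T3 HOM PM pool 1/5 differ between left cortex and midbrain for 1 of its mice. The correlations between regions rest on that assumption and are no check of it. Correlations used log2 ratios after adding 0.5 to the counts, less the group mean, and 100000 permutations within groups (Python 3.11.15, NumPy 2.4.6, SciPy 1.17.1, pandas 2.3.3, matplotlib 3.10.9).

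The named genes were c-Fos, the 3 with the highest and the 3 with the lowest mean correlation with it, the amylin receptor list, and the 2 largest called changes of each PM minus AM contrast. Other genes called in the HOM hindbrain, and those set beside c-Fos between regions, were named after their values were seen. No gene's correlation with c-Fos was called in more than 1 region with the reference genes as scale. The alternatives were TMM or positive control scaling, each reference gene left out, DESeq2 1.42.0, background subtraction, a filter on low counts, a pseudocount of 16, Spearman's rho, pools left out (low counts, T3, pools of 1 mouse, or each in turn), and no block. The promoter window was shortened to 150 bases. On simulated data for PM minus AM of HOM pools, changes above 1.5 on the log2 scale were called in 97.1% of cases in the hindbrain and 100% in the other 3 regions, and changes under 0.05 in 0% of cases in the hindbrain and at most 5.26% elsewhere. The changes were planted in genes drawn at random from the panel. Most of these varied less within groups than c-Fos, so the rates are not those of c-Fos. The 12 pools with no collection time entered the region means and comparisons, the correlations, the SD within groups, and the T1 medians and ranges. They were in no other contrast, but as a group of their own they entered the shared estimate of spread of each region's fit. The T1 medians are also given without them. NanoStringDiff, used by the study, was not run. None of 198 pairs of pools of 1 group had identical counts.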

Additional observations from a re-analysis of the deposited data

How the results depend on the processing

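Of 809 values of 102 results under the alternatives (leaving out single pools aside), 767 kept their direction and their side of the threshold. The cause of the exceptions was not tested. They are log2 differences of c-Fos unless named otherwise.

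With scaling to the positive control probes, T2 minus T1 was 0.017 in the hindbrain, 0.15 in the midbrain and -0.26 in the left cortex. T3 minus T1 and T3 minus T2 were -1.53 and -1.20 in the left cortex and -2.14 and -2.13 in the right cortex, all 4 called. Of the 43 genes, 43 and 42 were called in the left and 43 and 43 in the right cortex. PM minus AM at T3 was 0.33 in the hindbrain and 0.026 in the left cortex, and PM minus AM of HOM pools was -1.20 in the hindbrain and -0.94 in the right cortex, both no longer called. T3 less T1 of PM minus AM was 0.59 in the hindbrain and 0.072 in the right cortex. HEM minus NON was 0.077 in the hindbrain and 0.15 in the left cortex, HOM minus NON was 0.13 in the left cortex, and midbrain minus hindbrain was 0.32, called.

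With TMM scaling, T3 minus T1 and T3 minus T2 in the hindbrain were -0.59 and -0.53, no longer called, T3 minus T2 in the midbrain was 0.018, midbrain minus hindbrain was -0.34, called, and previously diabetic minus not in the right cortex at T3 was -1.09, called. With DESeq2 the last was -1.03 and the same contrast of the left cortex -0.99, both called. Without 1 of the 3 reference genes, midbrain minus hindbrain was -0.17, called.

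Without T3, midbrain minus hindbrain was -0.17 and PM minus AM in the hindbrain -0.69, both called. Without T3, PM minus AM of HEM pools in the hindbrain was -0.25, that of all midbrain pools -0.11, HOM minus NON in the midbrain -0.084, HEM minus NON in the left cortex 0.018, and PM minus AM of HOM pools in the right cortex -1.12, no longer called, and 1 comparison of genotypes within a time and collection point was called. Without the 3 hindbrain pools of low counts, PM minus AM was -0.68, called. The number of correlations called with c-Fos was 6 with TMM (Pdk1 in both cortices, Irs2 and Ptp1b in the left cortex, Arrb2 and Insr in the midbrain), 3 with each pool centred (Pdk1 in both cortices and Irs2 in the left), 2 with Spearman's rho (Irs2 and Ptp1b in the left cortex) and 0 without the 2 extreme pools. The r with age at T2 in the hindbrain was 0.025 without the 2 extreme pools.

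Without the replicate block, region differences were -0.06 for midbrain minus hindbrain, 0.59 and 0.67 for left and right cortex minus hindbrain, 0.65 and 0.73 for left and right cortex minus midbrain, and 0.08 for right minus left cortex. The block changed no call.

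With each pool left out in turn, 39 results changed direction or call in at least 1 case. PM minus AM over all groups ran from -0.72 to -0.36 in the hindbrain, -0.14 to 0.10 in the midbrain, -0.63 to -0.30 in the left cortex and -0.68 to -0.26 in the right cortex. PM minus AM at T3 ran from -0.77 to 0.45 in the hindbrain, -0.17 to 0.47 in the midbrain and -1.08 to 0.086 in the right cortex. PM minus AM of NON pools ran from -0.38 to 0.20 in the hindbrain and -0.36 to 0.076 in the midbrain. PM minus AM of HEM pools ran from -0.43 to 0.54 in the hindbrain and -0.17 to 1.14 in the left cortex. PM minus AM of HOM pools ran from -1.65 to -1.36 in the hindbrain, -1.21 to -0.74 in the left cortex and -1.71 to -1.12 in the right cortex. PM minus AM in T3 less that in T1 ran from -0.64 to 0.23 in the hindbrain, -0.45 to 0.27 in the left cortex and -0.88 to 0.37 in the right cortex. PM minus AM in HEM less that in NON ran from -0.21 to 0.89 in the hindbrain. HEM minus NON ran from -0.76 to -0.30 in the hindbrain, -0.35 to 0.080 in the midbrain, -0.38 to 0.14 in the left cortex and -0.41 to 0.073 in the right cortex. T2 minus T1 ran from -0.23 to 0.11 in the midbrain, -0.14 to 0.34 in the left cortex and -0.18 to 0.29 in the right cortex. T3 minus T2 ran from -0.33 to 0.018 in the midbrain, -0.74 to -0.18 in the left cortex and -0.69 to -0.21 in the right cortex. PM minus AM at T1 ran from -0.59 to 0.10 in the midbrain. PM minus AM at T2 ran from -0.36 to 0.12 in the midbrain and -0.68 to 0.016 in the left cortex. PM minus AM in HOM less that in NON ran from -0.55 to 0.026 in the midbrain. HOM minus NON ran from -0.10 to 0.19 in the midbrain. T3 minus T1 ran from -0.77 to -0.23 in the left cortex and -0.76 to -0.24 in the right cortex. PM minus AM in T2 less that in T1 ran from -0.67 to 0.0075 in the left cortex. Previously diabetic minus not at T3 ran from -2.05 to -0.99 in the hindbrain, -1.20 to -0.75 in the left cortex and -1.19 to -0.84 in the right cortex.

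In the following comparisons the count of genes called moved by over 1.5 times. T3 minus T1 called 29 genes in the hindbrain (16 to 38 over the alternatives), 24 in the midbrain (1 to 28) and 26 in the left cortex (18 to 43). T3 minus T2 called 25 in the midbrain (4 to 37). T2 minus T1 called 0 in the hindbrain (0 to 4), 7 in the midbrain (5 to 13), 3 in the left cortex (2 to 23) and 3 in the right cortex (1 to 6). PM minus AM called 3 in the hindbrain (0 to 4), 7 in the midbrain (1 to 9), 15 in the left (0 to 17) and 6 in the right cortex (0 to 9), and in HOM pools 4 (0 to 5), 10 (5 to 15), 18 (0 to 19) and 11 (2 to 20). Right minus left cortex called 0 (0 to 7). The number of pools, 1 to 5 per group, limits the precision.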

Other observations

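The 3 HEM pools of T1 in each region whose labels give no collection time had c-Fos ratios to the reference genes of 1.28 to 1.49 in the hindbrain (median 1.32), 0.700 to 0.891 in the midbrain (median 0.871), 1.26 to 1.62 in the left cortex (median 1.52) and 1.45 to 1.57 in the right cortex (median 1.51). The 5 NON pools of T1, of both collection times, ranged from 0.705 to 1.45, from 0.577 to 1.14, from 0.683 to 1.78 and from 0.871 to 1.74 in the same regions. In the hindbrain 1 of the 3 was above all NON pools, and in the other regions all 3 lay inside the range of the NON pools.

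At T3, 3 other genes differed between pools labelled as previously diabetic and not, in the comparison chosen after the data were seen. Agrp, a peptide that stimulates feeding, was higher in the previously diabetic pools of the midbrain by a log2 difference of 0.74 (SE 0.135, adjusted p = 0.00368, edgeR). Hcrt was lower in the left cortex by -0.75 (SE 0.182, adjusted p = 0.0336) and Lepr, the leptin receptor, by -0.52 (SE 0.132, adjusted p = 0.0336). The median Hcrt count of the left cortex was 26.5, and 33 of the 48 left cortex pools had Hcrt above background.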
